A study of Homo sapiens with 2 samples.

Results

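UBE2D2 and UBASH3B are 2 genes of the ubiquitin pathway whose transcripts held many regions of RNA recovered with TARBP2 after cross-linking. The regions described here are those on the plus strand, the strand of both genes, that overlap UBE2D2 (chr5:138940751-139008018) or UBASH3B (chr11:122526398-122685187) on hg19 by at least 1 nt. There were 53 of them among 23412 regions in all, 24 in UBE2D2 and 29 in UBASH3B, and each lay wholly inside its gene. The genes were chosen by their listed regions, which are measured values, so the number of regions in each gene and the share it covers are given as descriptions, with no test.

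The cells were MDA-LM2, a line derived from human breast cancer cells that metastasize to the lung. They were transfected transiently with a vector for myc-tagged TARBP2, UV cross-linked 48 hours later and taken through HITS-CLIP with an anti-myc antibody. In this assay, RNA cross-linked to a protein is purified with it and sequenced. The regions thus report RNA that was recovered with the introduced, tagged protein. The study held 1 group of 2 replicates, and the deposited regions form 1 list with no value per replicate. Each region has the score 1, so read depth is unknown, the replicates could not be compared, and no comparison with a control library was made. The list holds positions and no expression values, so neither the cell line nor the level of either transcript could be checked in it.

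Ubiquitin is passed from an activating enzyme (E1) to a conjugating enzyme (E2) and then, with the help of a ligase (E3), to a target protein. UBE2D2 is an E2 that works with many E3 ligases, and the ubiquitin it transfers can mark a protein for destruction. UBASH3B, also called STS-1 or TULA-2, holds a ubiquitin-associated domain, an SH3 domain and a phosphatase domain. It binds the E3 ligase CBL and removes phosphate from tyrosine kinases such as SYK, which damps receptor signalling. TARBP2 binds double-stranded RNA and assists Dicer, the nuclease that cuts microRNA precursors. Introns, where most of the nucleotides of both genes lie, are transcribed into the precursor RNA and removed by splicing.

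The regions of both genes lay in introns. None of the 24 regions in UBE2D2 touched an annotated exon, and 3 counts of that total, the limit for a count of 0, are 12.5%. In UBASH3B 1 of 29 regions did, and the exon belonged to a transcript annotated as non-coding. Exons came from GENCODE 29 on GRCh38, placed on hg19 by a constant shift. For UBE2D2 the gene bounds matched transcript UBE2D2-202 at both ends, with a length of 67268 nt in each build and a shift of 620415 nt. For UBASH3B the shift was 129277 nt from the start and 129286 nt from the end of transcript UBASH3B-201, so its exons are placed with an uncertainty of at least the 9 nt between them. The annotated exons of all transcripts made up 5.02% of UBE2D2 and 5.67% of UBASH3B. These shares count nucleotides, while a region was counted as exonic from 1 nt of overlap, so counts of regions cannot be set against them directly. Of the nucleotides covered by regions, 0 of 13491 in UBE2D2 and 169 of 16008 in UBASH3B lay in an annotated exon. Whether this is fewer than the exon shares was not tested. The share of all listed regions that touch an exon was not determined.

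Most regions of UBE2D2 and all regions of UBASH3B fell within the first intron, which makes up 57.3% and 75.6% of these genes. The spliced sequences around it are shown because they mark the junction between whose sides the regions lay. They are GENCODE transcript sequences on the plus strand, written 5′ to 3′, with the coding end of exon 1 in lower case and the whole of exon 2 in capitals. On GRCh38 the exon 1 part of UBE2D2 is chr5:139561792-139561815 and exon 2 is chr5:139600372-139600435. For UBASH3B the exon 1 part is chr11:122656181-122656210 and exon 2 is chr11:122776219-122776272.
UBE2D2, exon 1 to exon 2: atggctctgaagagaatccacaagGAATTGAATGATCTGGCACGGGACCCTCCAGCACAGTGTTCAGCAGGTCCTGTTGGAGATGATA
UBASH3B, exon 1 to exon 2: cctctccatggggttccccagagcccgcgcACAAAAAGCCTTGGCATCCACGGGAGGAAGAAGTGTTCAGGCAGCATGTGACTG

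The UBASH3B region that touched an exon ran over 409 nt, chr11:122579745-122580153. It overlapped exon 1 of UBASH3B-203, a transcript of 4 exons annotated as a processed transcript with no coding sequence, by 169 nt (41.3% of the region). With the shift taken from the gene end the overlap was 178 nt. This exon, at chr11:122709262-122709474 on GRCh38, begins inside the first intron of the coding transcript. It is shown because it is the single stretch of a region of either gene for which a sequence was at hand. It is written 5′ to 3′ on the plus strand with the 169 bases that lay within the region in capitals.
UBASH3B-203, exon 1: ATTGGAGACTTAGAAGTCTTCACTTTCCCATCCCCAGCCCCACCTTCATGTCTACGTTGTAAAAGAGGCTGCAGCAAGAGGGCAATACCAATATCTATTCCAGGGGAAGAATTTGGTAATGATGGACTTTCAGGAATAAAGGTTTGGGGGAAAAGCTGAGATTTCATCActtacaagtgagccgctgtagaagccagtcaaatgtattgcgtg
The bases in capitals held 43.8% G and C. The regions on both sides of this one, chr11:122578476-122579424 and chr11:122580584-122580987, ended 560 nt before the exon and began 386 nt after it.

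**Figure D1:**
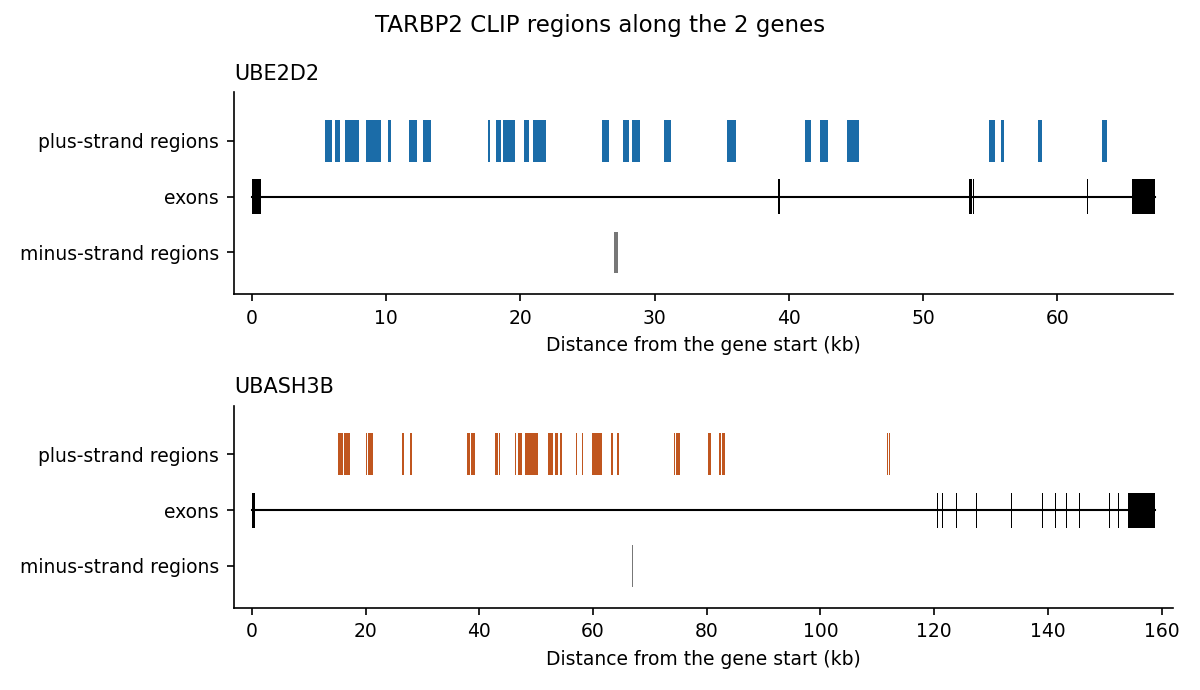
Plus-strand regions (coloured boxes), exons of the main coding transcript (black) and minus-strand regions (grey) of UBE2D2 and UBASH3B, by distance from the gene start in kb. The 24 regions of UBE2D2 spread over 4 introns, while the 29 of UBASH3B all lie in the first intron, and each gene has 1 minus-strand region.

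In UBE2D2, 17 of the 24 regions (70.8%, 95% exact Clopper-Pearson interval 48.9 to 87.4%) lay in the first intron, which is 38.6 kb long and makes up 57.3% of the gene. This interval contains 57.3%, so the count was not told apart from the intron's share of the gene. All intervals given here cover counting error only. Regions covered 26.2% of the first intron, 14.1% of intron 2 (3 regions), 11.6% of intron 5 (3 regions) and 12.2% of intron 6 (1 region). Introns 3 and 4, of 79 and 86 nt, held 0 regions. After the first intron the gene held 7 regions in 28.1 kb, or 2.49 per 10 kb, against 4.41 per 10 kb within it. Of all 8 transcripts annotated for the gene, the exon nearest to any region was 832 nt away, from the last region of the gene. The median distance of a region to an exon was 7221 nt.

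In UBASH3B, all 29 regions (interval 88.1 to 100%) lay in the first intron, which is 120.0 kb long and makes up 75.6% of the gene. This interval lies above 75.6%, but regions of 1 transcript are not independent, so no test was made. The regions covered 13.3% of the intron. The 38.2 kb from the end of this intron to the end of the gene, with 13 of the 14 exons of the coding transcript and its 12 other introns, held 0 regions. The last region ended 8273 nt before exon 2. Against the exons of all 8 annotated transcripts, the median distance of a region was 7209 nt, and the farthest lay 25.9 kb away.

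UBASH3B had more regions than UBE2D2 and a lower density. Over the 67.3 kb of UBE2D2 there were 3.57 regions per 10 kb, which covered 13.5 kb or 20.1% of the gene. Over the 158.8 kb of UBASH3B there were 1.83 per 10 kb, which covered 16.0 kb or 10.1%. From the first to the last region, the stretch was 58.3 kb in UBE2D2, of which 23.1% was covered, and 97.2 kb in UBASH3B, of which 16.5% was covered. Regions along 1 transcript are not replicates and share their source, so these values were not tested against each other.

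The regions were unevenly spread, and both genes had more of them before their midpoint than after it. The first region of UBE2D2 (chr5:138946180-138946738) began 5.43 kb after the gene start, and the last (chr5:139004080-139004482) ended 3.54 kb before its end. In UBASH3B the first (chr11:122541491-122542344) began 15.1 kb after the start, and the last ended 46.5 kb before the end. Before the midpoint of UBE2D2 lay 16 regions, and after it 8. Regions covered 28.1% of the gene before the midpoint and 12.04% after it. UBASH3B had 24 regions before its midpoint and 5 after it, with 18.1% and 2.09% covered. The same order held within the first intron alone, which takes up most of each gene before the midpoint. Its 2 equal parts held 10 and 7 regions in UBE2D2, and 19 and 10 in UBASH3B. Its part nearer to the gene start was covered to 31.3% and its other part to 21.2% in UBE2D2, and to 19.4% and 7.23% in UBASH3B.

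When each gene was divided into 10 equal bins, 1 bin stood above the others in each. In UBE2D2 this was bin 2, from 6.73 to 13.5 kb after the gene start, which held 5 regions, was covered to 53.9% and contained 26.9% of all covered nucleotides of the gene. The next highest, bin 7, was covered to 29.7%. Bin 8, which holds exons 3 to 5, was empty. In UBASH3B the highest was bin 4, from 47.6 to 63.5 kb after the gene start, with 9 regions, a covered share of 41.3% and 41.0% of all covered nucleotides. The next highest was bin 3, at 19.4%. Bins 7, 9 and 10 of UBASH3B were empty. Bin 1, at the gene start, was covered to 14.3% in UBE2D2 and 4.95% in UBASH3B, less than each gene as a whole.

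**Figure D2:**
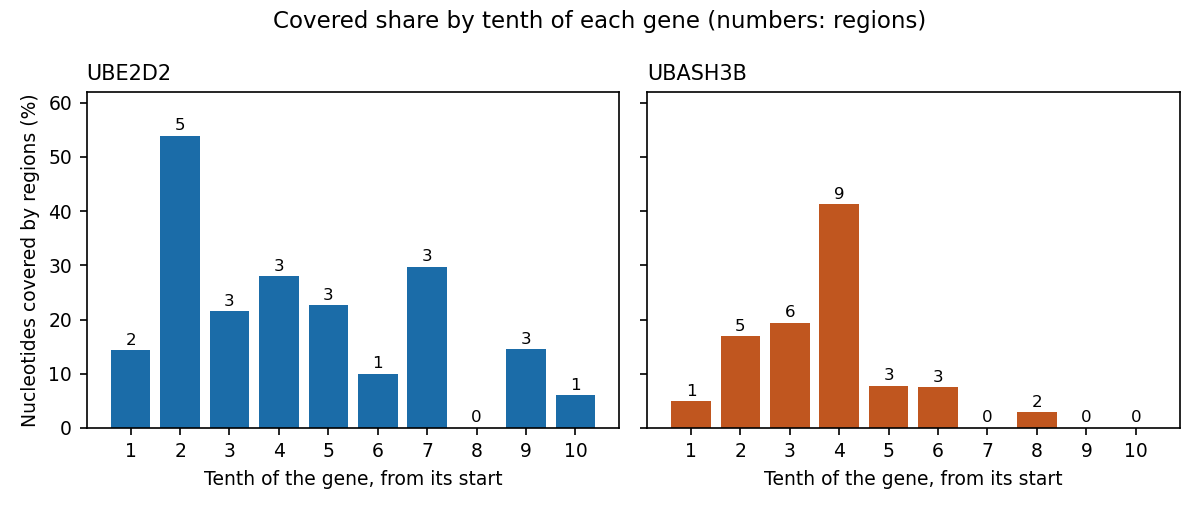
Share of nucleotides covered by plus-strand regions (%) in each of 10 equal bins along UBE2D2 and UBASH3B, counted from the gene start, with the number of regions by midpoint above each bar. Bin 2 of UBE2D2 (53.9%) and bin 4 of UBASH3B (41.3%) are the highest bars.

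Regions of both genes were longer than most regions of the list. In UBE2D2 the shortest was 205 nt, the median 510 nt and the longest 1096 nt, with quartiles at 399 and 625 nt. In UBASH3B the shortest was 183 nt, the median 429 nt and the longest 1778 nt, with quartiles at 281 and 794 nt. Over all 23412 regions the median was 253 nt, with quartiles of 248 and 374 nt. Of the 53 regions, 46 (86.8%, interval 74.7 to 94.5%) were longer than the list median, against 49.5% of all regions. Above the upper quartile of the list were 19 of 24 in UBE2D2 (79.2%) and 17 of 29 in UBASH3B (58.6%), against 24.95% of all regions.

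The modal length of the list, 1 nt above its lower quartile, was found for 3 of the 53 regions. One was in UBE2D2 (chr5:138996533-138996781), and 2 were in UBASH3B (chr11:122546391-122546639 and chr11:122552851-122553099). This is 5.66% (interval 1.18 to 15.7%), against 8.21% of all plus-strand regions and 19.7% of all regions.

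The longest regions of UBE2D2 were 1096 nt (chr5:138949273-138950368) and 1090 nt (chr5:138947672-138948761). They follow each other in bin 2, 511 nt apart. The next was 995 nt (chr5:138961661-138962655), also in the first intron. In UBASH3B the longest region was 1778 nt (chr11:122586184-122587961), and regions of 1083 nt (chr11:122575561-122576643) and 1052 nt (chr11:122542560-122543611) came next. The regions of 1778 and 1083 nt lay in bin 4. Over both genes, 5 regions (9.43%) were longer than 1000 nt, against 2.23% of the list.

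Median lengths also differed along the genes, but the ranges overlapped, some groups were small and the differences were not tested. The 17 regions in the first intron of UBE2D2 had a median of 542 nt (205 to 1096 nt), and the 7 in later introns 447 nt (up to 943 nt). The 24 regions before the midpoint of UBASH3B had a median of 472 nt (223 to 1778 nt), and the 5 after it 281 nt (183 to 484 nt).

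**Figure D3:**
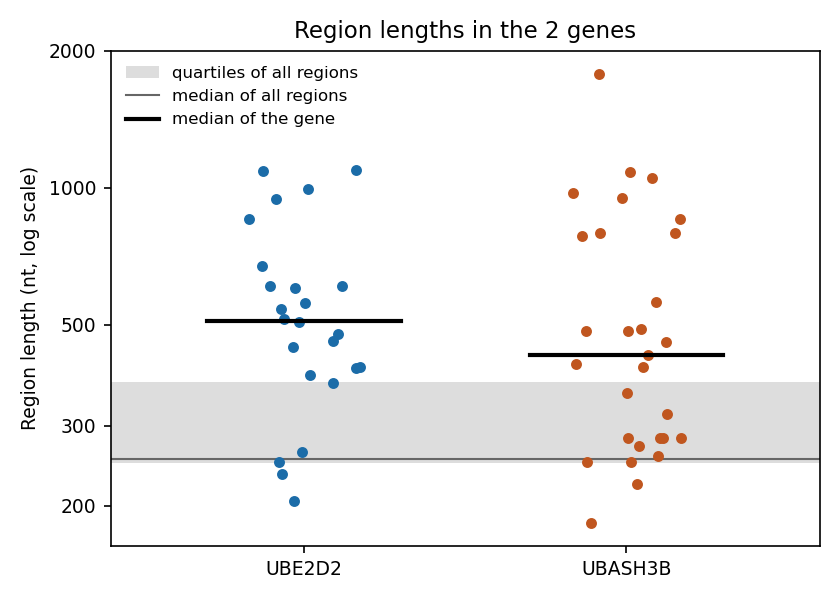
Length of each plus-strand region (nt, log scale) in UBE2D2 and UBASH3B, spread sideways for visibility, with the median of each gene as a black bar. The grey band spans the quartiles of all regions of the list, 248 to 374 nt, and 19 of 24 points of UBE2D2 and 17 of 29 of UBASH3B lie above it.

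Neighbouring regions were often close. The median of the 23 gaps of UBE2D2 was 726 nt (quartiles 414 and 3343 nt), and that of the 28 gaps of UBASH3B was 939 nt (quartiles 267 and 2571 nt). Between same-strand neighbours of the list as a whole the median gap was 43.9 kb, but the genes were chosen for having many regions, so shorter gaps than in the list follow from the choice. A gap of at most 300 nt followed 4 regions of UBE2D2 (17.4%) and 9 of UBASH3B (32.1%), against 4.68% in the list. All of these formed pairs, and no 3 regions in a row were this close. The smallest gap of UBE2D2 was 151 nt, between chr5:138958939-138959326 and chr5:138959478-138960331. That of UBASH3B was 142 nt, between chr11:122574447-122575418 and chr11:122575561-122576643. The smallest gap in the list was 101 nt, and the names of the regions begin with the word merge, so closer regions may have been joined before deposit.

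The last pair of UBASH3B stood apart from the rest. Its regions of 281 nt (chr11:122638047-122638327) and 183 nt (chr11:122638486-122638668) lay 28.5 kb beyond the preceding region, the largest gap of the gene. The other 27 regions lay within 68.1 kb, with no gap above 9751 nt. The largest gap of UBE2D2 was 9642 nt, between chr5:138985070-138986012 and chr5:138995655-138996115, and it held exons 3, 4 and 5 of the coding transcript. Exon 2 lay in the second largest gap (5198 nt) and exon 6 in the third largest (4490 nt). All 5 internal exons of UBE2D2 were thus in its 3 largest gaps, which together made up 43.1% of the nucleotides between its regions. No region touched an exon, so each internal exon had to lie in some gap, and exons 3 to 5 lay together in 1. The pattern was noticed after the gaps had been seen. In UBASH3B no gap between regions held an exon of the coding transcript.

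**Figure D4:**
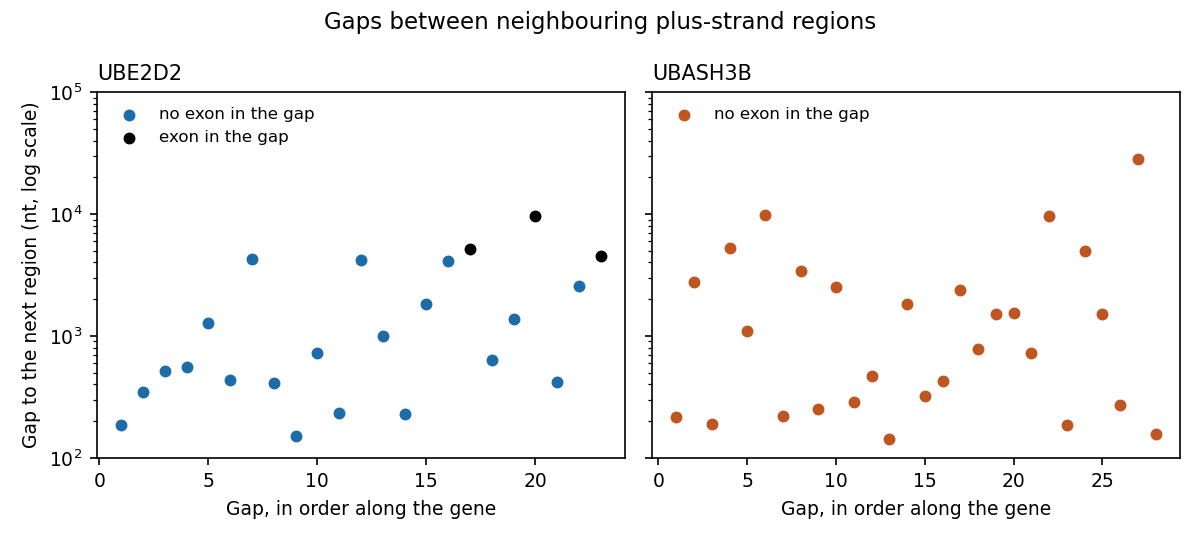
Gap from each plus-strand region to the next (nt, log scale), in order along UBE2D2 (23 gaps) and UBASH3B (28 gaps); black points are gaps that hold an exon of the main coding transcript. The black points of UBE2D2 are its 3 largest gaps (9642, 5198 and 4490 nt), and the highest point of UBASH3B is 28.5 kb.

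The deposited regions are numbered in their order on each strand of a chromosome, and some numbers were not among the regions analysed here. The meaning of these unlisted numbers is a point not given in the sources used here. From the first to the last region of UBE2D2 there were 48 numbers, of which 24 were listed (50%, interval 35.2 to 64.8%). In UBASH3B 29 of 61 were listed (47.5%, interval 34.6 to 60.7%). On the plus strand of all chromosomes 13.8% of numbers were listed. Both genes were chosen for having many listed regions, so a high share is a description. The 24 unlisted numbers of UBE2D2 fell in 10 of its 23 gaps, and the 32 of UBASH3B in 13 of its 28. The largest gap of each gene held the most, 7 in each. Gaps with no unlisted number were at most 1378 nt in UBE2D2 and 1517 nt in UBASH3B.

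The plus-strand regions ended inside both genes, and few lay nearby. The nearest one upstream of UBE2D2 was a region of 255 nt (chr5:138894445-138894699), 46.1 kb before the gene start, and the nearest downstream lay 78.5 kb after the gene end. GENCODE annotates a further transcript of UBE2D2, UBE2D2-208, that starts 34.7 kb upstream of the bounds used here, and 0 plus-strand regions lay in this added part. Around UBASH3B the nearest plus-strand regions lay 699 kb before the gene start and 189 kb after the gene end. CXXC5, which lies downstream of UBE2D2 on the same strand, had 0 regions on either strand by the same shift. Of CRTAM, which lies downstream of UBASH3B on the same strand, the same was found.

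On the minus strand, opposite to the transcripts, each gene held 1 region, and it overlapped no plus-strand region. In UBE2D2 it was 267 nt long (chr5:138967741-138968007) and lay in the first intron, in a gap between plus-strand regions that ended 355 nt before it and began 383 nt after it. In UBASH3B it had the modal length (chr11:122593266-122593514), also in the first intron, 2238 nt after one plus-strand region and 7087 nt before the next. The minus-strand share was 4.00% in UBE2D2 (1 of 25, interval 0.101 to 20.4%) and 3.33% in UBASH3B (1 of 30, interval 0.0844 to 17.2%), against 60.9% of the regions of chromosomes 1 to 22 and X. The genes were chosen for their plus-strand regions, so this difference is given as a description.

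Within 50 kb of the genes there were 4 more minus-strand regions. Upstream of UBE2D2 lay 3, each of the modal length, at distances of 5.29, 15.2 and 49.7 kb (chr5:138935216-138935464, chr5:138925337-138925585 and chr5:138890773-138891021). The nearer pair lay opposite the added part of UBE2D2-208. Downstream of UBASH3B was 1 region of 296 nt (chr11:122686963-122687258), 1775 nt after the gene end. It lay within the bounds of AP002762.1, a gene annotated as antisense that overlaps the end of UBASH3B on the minus strand, and touched none of its exons. The last pair of plus-strand regions of UBASH3B lay within the same bounds and touched none of these exons either.

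Compared with other dense stretches, those of UBE2D2 and UBASH3B were of middle size and below the middle in density. Joining same-strand regions at most 10 kb apart gave 23 stretches of at least 20 regions, of which 6 were on the plus strand. The 24 regions of UBE2D2 formed 1 of them, and 27 regions of UBASH3B another. They ranked 11 and 7 by number of regions. By covered share they ranked 15 (23.1%) and 16 (22.8%), against a median of 26.4% and a range of 15.7 to 58.4% in the other 21. By median region length they ranked 9 (510 nt) and 13 (459 nt), against a median of 460 nt (325 to 751 nt). By median gap they ranked 15 (726 nt) and 10 (939 nt) from the largest, against a median of 901 nt (278 to 2068 nt). By the share of numbers listed they ranked 20 (50%) and 18 (51.9%), against a median of 60% (38.2 to 89.2%). Both thus lay within the range of the other dense stretches in each of these measures, and longer regions than in the list were found in dense stretches of other loci as well. No gap within a stretch can exceed 10 kb by construction, so gaps shorter than the list median of 43.9 kb follow from the joining.

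**Figure D5:**
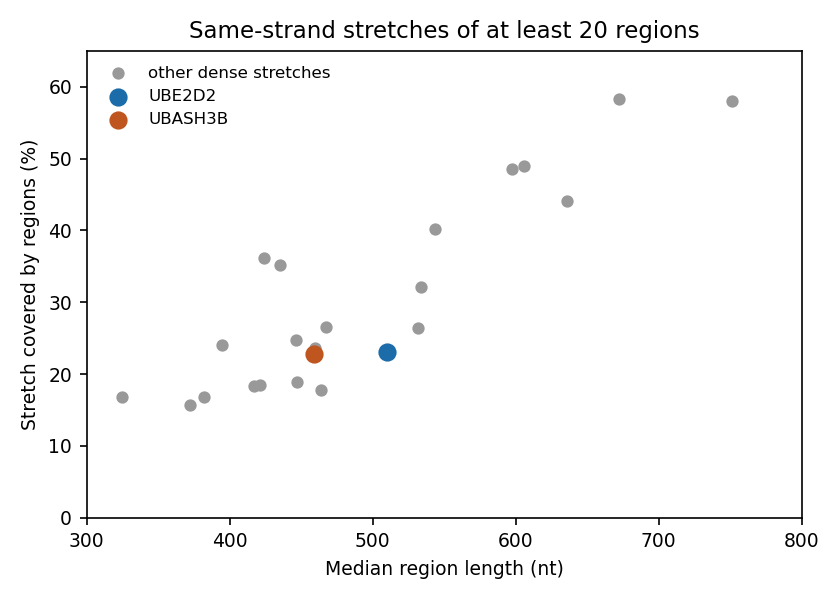
Median region length (nt) and share of the stretch covered by regions (%) of the 23 same-strand stretches of at least 20 regions. The points of UBE2D2 (510 nt, 23.1%) and UBASH3B (459 nt, 22.8%) lie among the 21 other stretches, which reach 58.4% covered.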

How the data were processed

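TARBP2 HITS-CLIP regions of MDA-LM2 cells (1 group, 2 replicates) were analysed from 1 list. Per the submitters' processing notes, Bowtie was the aligner and hg19 the genome. The calling and filtering of regions and the use of replicates remain not given in the sources used here. Starts are 0-based in the deposited list and printed here 1-based. The score the authors deposited was 1 for each region and was not used. GENCODE 29 exons on GRCh38 were placed on the hg19 gene bounds by a constant shift per gene, taken from the gene start. No sequence of hg19 was used, so intronic regions are given by position. Other ubiquitin genes had been listed for counting and were not analysed here.

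Members, lists and measures were chosen with earlier results of these data known. Regions named singly were the 3 longest, the first and last, those at the smallest and largest gaps, those touching an exon and those on the minus strand. Regions of the modal length (249 nt), those beside the exon, and the neighbours CXXC5 and CRTAM were added after their values were seen. Shares of regions have 95% exact Clopper-Pearson intervals, and 0 exonic regions in UBE2D2 the limit of 3 counts. Regions of 1 transcript are not independent, so these describe counting error and no test was made. All 200 simulated layouts used to test the measures were recovered. Python 3.11.15, numpy 2.4.6, scipy 1.17.1 and matplotlib 3.10.9 were used.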

Additional observations from a re-analysis of the deposited data

How the results depend on the processing

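There were 45 alternatives, 44 planned and 1 (the start of UBE2D2-208) chosen after seeing the data. Covered shares carry no error that could weigh their changes, so they are given as values. In UBASH3B the count of regions touching an exon went from 1 to 0 with exons of protein-coding transcripts, with those of the longest such transcript, with at least 50% of the region in exons and with the midpoint in an exon. The number of regions fell by construction when gaps of at most 500 nt were joined, from 24 to 16 in UBE2D2 and from 29 to 17 in UBASH3B. Filling these gaps gave a covered share of 23.6% in UBE2D2 and 12.1% in UBASH3B. Without regions of the modal length the covered share was 19.7% and 9.77%, and the highest bin held 27.4% of covered nucleotides in UBE2D2 and 42.3% in UBASH3B. A window slid over the gene in place of fixed bins held 28.6% in UBE2D2 and 45.0% in UBASH3B. Minus-strand regions numbered 2 in each gene extended by 10 kb. No paired analysis was possible because the single list of the single group carries no replicate, and for this reason no replicate could be left out. Depth is unknown, so regions could not be weighed by it.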
